A study of Saccharomyces cerevisiae with 2 samples.

Results

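Ty elements are the LTR retrotransposons of *Saccharomyces cerevisiae*, and their genes were followed here in an engineered carotenoid-producing strain grown in 2 media. The members are all rows of the deposited expression table whose gene description contains the word retrotransposon. There were 90 such rows among 7126, namely 46 TYA rows, which encode the Gag particle protein, and 44 TYB rows, most of which encode the Gag-Pol polyprotein. The annotation of the R64 reference genome placed 62 of them in family Ty1, 20 in Ty2, 3 in Ty3 and 4 in Ty4. The TYA row YIL082W has no gene of that name in R64, and it was listed at 0 in both libraries. A supplementary table of the same libraries lists this row above zero, so its deposited value may not mean that no RNA was present.

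Both libraries come from BL03-D-4, a strain derived from the haploid BY4742, and both were harvested after 24 h. They share every engineered allele. GAL80 is deleted (Δgal80), the carotenoid genes crtB, crtI and crtE are driven by the HSP26 promoter, a truncated HMG-CoA reductase is driven by the CIT1 promoter, and ALD6 is deleted (Δald6). One culture was grown in YPD2, the medium that the labels call YPD. The other was grown in YPM, a modified YPD with yeast extract of another manufacturer and lot and with added phosphate and sulfate salts and trace metals. These components therefore cannot be told apart in the comparison. The strain is 1 clone, and its own Ty insertions were not mapped here, so each row stands for a copy of the reference genome.

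There was 1 library per medium. The differences given here are therefore between 2 libraries, without replicates and without p-values. Values are TPM, a length-corrected share of the library that RSEM estimates and scales to a fixed total. TPM keeps no record of read number, so the depth is unknown. Because TPM is a share, less Ty RNA and more of all other RNA cannot be told apart. The listed TPM summed to 937091 in YPD2 and 925918 in YPM. The deleted genes GAL80 and ALD6 were listed at 0 in both libraries. The α-cell genes MFALPHA1, MFALPHA2, STE3 and SAG1 were between 13.6 and 427 TPM. Of the **a**-cell genes, MFA1 and MFA2 were at 0, and STE2, BAR1 and ASG7 were between 2.69 and 8.70 TPM. Both libraries therefore carry the marker pattern of the α mating type of the parent.

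A Ty element is transcribed from one long terminal repeat to the other into a polyadenylated RNA. This RNA is both the message for Gag and Gag-Pol and the genome that is copied into DNA inside a virus-like particle. Ty1, Ty2 and Ty4 belong to the copia group of retrotransposons, whereas Ty3 belongs to the gypsy group. In all of them the ribosome normally reads only TYA, and a shift of 1 base forward near the end of TYA lets it continue into TYB. In haploid cells Ty1 transcription depends on Ste12 and Tec1, and Ty3 transcription is induced by mating pheromone.

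The frameshift site is shown because it decides what the rows measure. In R64, 42 TYB rows are annotated as 2 coding segments joined at a shift of the reading frame. Of these, 40 begin at the first base of a TYA row, so that both rows are read from the same RNA. The exceptions are YIL082W-A of Ty3, whose element has no matched TYA row, and YJL113W of Ty4, which R64 starts after the end of its TYA row. All 42 hold a heptamer of known function there, CTTAGGC in Ty1, Ty2 and Ty4 and GCGAGTT in Ty3. The 28 Ty1 rows have 5 distinct windows around it, and the 10 Ty2 rows share 1. The sites of the most abundant TYB row of each family follow, 5′ to 3′ with the heptamer in capitals, from the plus strand of R64 at chrIV:1208281-1208323, chrXII:942755-942797, chrVII:708444-708486 and chrVIII:86974-87016.
Ty1 YDR365W-B: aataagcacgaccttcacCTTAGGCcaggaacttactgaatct
Ty2 YLR410W-B: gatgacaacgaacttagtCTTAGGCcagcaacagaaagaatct
Ty3 YGR109W-B: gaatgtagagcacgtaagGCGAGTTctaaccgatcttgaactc
Ty4 YHL009W-B: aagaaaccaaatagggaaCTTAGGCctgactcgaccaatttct
The typical Ty1 TYA row has 1323 bases and covers 25.1% of the 5269 bases of its TYB row. For 40 TYA rows, every 50-base word was also found in the TYB row of the same element. A read from the TYA frame can therefore be assigned to either row.

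Copies also share reads with each other. The median member had 98.4% of its 50-base words elsewhere in R64, and 33 of the 90 rows (22 TYA and 11 TYB) had no unique word at all. The most abundant row of the whole set, YDR365W-B on chromosome IV, had 50 unique words, all of which cover the same base. Among the Ty1 TYB rows, 29 others carry the change T2381C relative to it, with the base of YDR365W-B first and positions counted from the first base of that row. This position is shown in capitals below for YDR365W-B (chrIV:1209347-1209407, plus strand) and for YGR027W-B, the row with the next highest mean of both libraries (chrVII:538407-538467, plus strand).
YDR365W-B: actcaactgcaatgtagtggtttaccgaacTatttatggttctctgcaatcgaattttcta
YGR027W-B: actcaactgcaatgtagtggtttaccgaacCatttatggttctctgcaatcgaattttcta
The 2 Ty3 TYB rows were the best separated, with 1607 and 1618 unique words. For Ty1 and Ty2, the sum over rows is firmer than any single row, since reads moved between rows of like length leave it nearly unchanged. A read moved between a TYA and a TYB row does change the sum, because TPM is corrected for length.

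As a sum, the Ty rows were slightly lower in YPM. All 90 rows together had 1666 and 1463 TPM in YPD2 and YPM, a ratio of 0.878, which is 0.178% and 0.158% of the summed TPM. With TPM weighted by row length, the ratio was 0.876. The TYA and TYB sums had close ratios, but the TYA ratio leaned on its highest row. Without the highest row of each type, the ratio was 0.935 for TYA and 0.869 for TYB. The TYA rows had 139 and 123 TPM in YPD2 and YPM, a ratio of 0.885. The TYB rows had 1527 and 1340 TPM, a ratio of 0.878, and held 91.6% of the member TPM in both libraries. The median log2 ratio of all rows tested was −0.13, so a small shift toward lower values in YPM was common to the table. When YPM was rescaled by 1.098, which puts the median of rows with a mean of 10 TPM or more at 0, the ratio of the member sum was 0.965.

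By family, Ty1, Ty2 and Ty3 were lower in YPM and Ty4 was higher. The 62 Ty1 rows summed to 1419.8 and 1230.2 TPM in YPD2 and YPM, a ratio of 0.866. The 20 Ty2 rows had 164 and 145 TPM, a ratio of 0.884. The 3 Ty3 rows had 38.9 and 36.0 TPM, a ratio of 0.926 that became 1.02 after the rescaling, so the Ty3 direction depends on the scaling. The 4 Ty4 rows had 42.8 and 51.8 TPM, a ratio of 1.21, or 1.33 after the rescaling. Most of the Ty4 difference came from the TYB row YHL009W-B, and without it the Ty4 ratio was 1.02. Ty1 made up most of the Ty RNA in both libraries.

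**Figure D1:**
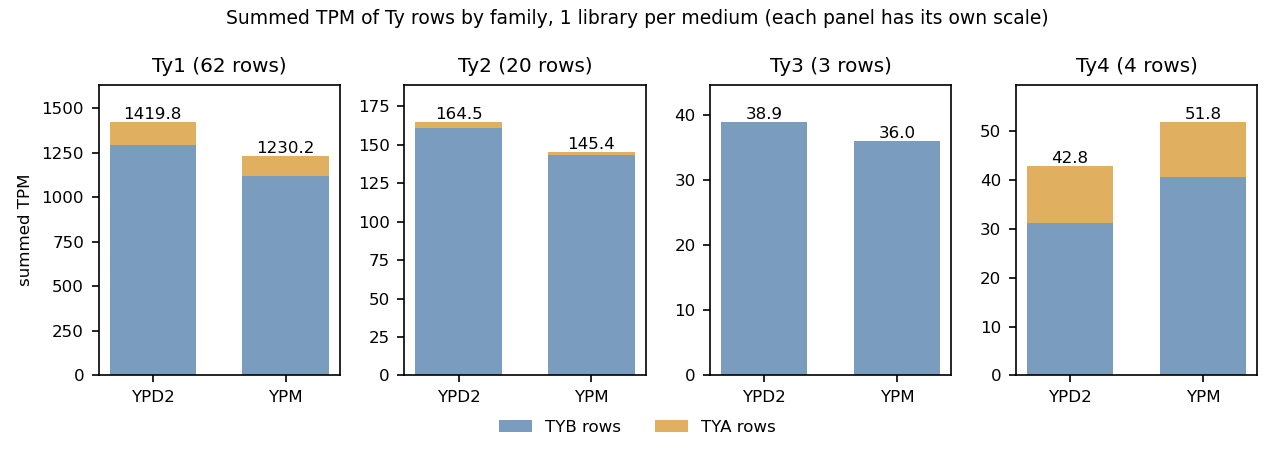
Bars give the summed TPM of the member rows of each Ty family in YPD2 and in YPM, 1 library each, split into TYB and TYA rows, and each panel has its own vertical scale that starts at 0. The Ty1, Ty2 and Ty3 bars are lower in YPM (1230.2 against 1419.8 TPM for Ty1), and the Ty4 bar is higher (51.8 against 42.8 TPM).

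Seen element by element, lower values in YPM were spread over most copies. Of the 50 elements annotated in R64, 45 had member rows. Weighting TYA and TYB by length, 39 of these 45 were lower in YPM and 6 were higher, or 32 and 13 after the rescaling by 1.098. Among the 31 Ty1 elements, 29 were lower (25 after the rescaling), and their median ratio was 0.840. Both Ty4 elements with member rows were higher, with ratios of 1.05 and 1.45. The other 4 above 1 were YARCTy1-1 (1.13), YPRCTy1-2 (1.01), YBLWTy2-1 (1.03) and YCLWTy2-1 (1.502). Since copies share reads, these elements are not independent measurements.

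The TYB rows, which code for protease, integrase, reverse transcriptase and RNase H, in most cases besides Gag, were all listed above 0 in both media and nearly kept their order. The highest was YDR365W-B with 131 and 128 TPM in YPD2 and YPM, ranks 1240 and 1167 of the whole table. Next by mean came YGR027W-B with 78.0 and 77.3 TPM, YER138C with 82.8 and 71.9 TPM, and YOR142W-B with 86.6 and 66.0 TPM. YHR214C-B had 69.0 and 52.8 TPM in YPD2 and YPM, and YPR137C-B had 61.0 and 60.7 TPM. Among these rows YOR142W-B and YHR214C-B were lower in YPM, whereas YDR365W-B, YGR027W-B and YPR137C-B were almost level. The other 6 of the 12 highest rows, all Ty1 TYB, ran from 43.5 to 57.2 TPM in YPD2 and from 37.1 to 50.7 TPM in YPM. The 5 highest TYB rows held 29.3% of the TYB sum in YPD2 and 29.5% in YPM. The median row of the table stood at 45.2 and 41.5 TPM in YPD2 and YPM, and 10 TYB rows lay above it in each library.

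Outside Ty1, the TYB levels were lower. The highest Ty2 row, YLR410W-B, had 33.6 and 29.9 TPM in YPD2 and YPM. The 2 Ty3 rows were close to each other, with 18.8 and 18.7 TPM for YGR109W-B and 20.1 and 17.3 TPM for YIL082W-A. The Ty4 row YHL009W-B had 19.0 and 27.6 TPM in YPD2 and YPM, and its log2 ratio of 0.52 was the highest of the TYB rows after 1 TPM was added. As a plain ratio, the low Ty2 row YCL019W was higher (4.12 and 6.19 TPM, 1.502 against 1.45). The other Ty4 TYB row, YJL113W, had 12.3 and 13.1 TPM. Across the 44 TYB rows, the values of the 2 libraries followed each other with a Pearson r of 0.966 and a Spearman rho of 0.967. This is a description across rows that share reads and a library, not a test.

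**Figure D2:**
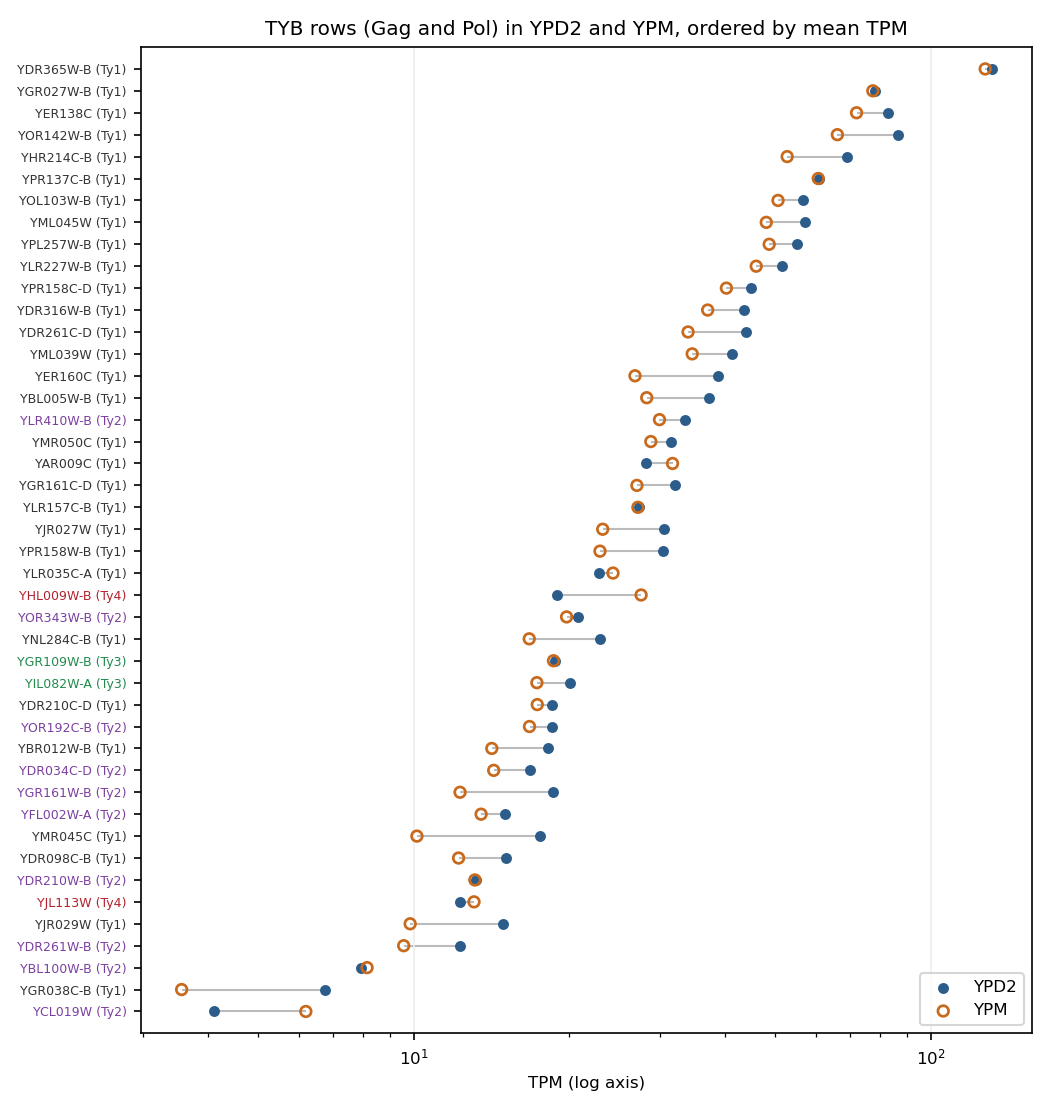
Each line joins the TPM of a TYB row in YPD2 (filled circle) and in YPM (open circle), 1 library each, on a log axis, and rows are ordered by mean TPM. The order is nearly the same in both libraries, with YDR365W-B highest at 131 and 128 TPM and no row beyond a log2 ratio of 0.77 in size once 1 TPM is added to each value.

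None of the 44 TYB rows differed by a log2 ratio of 1 or more, the limit used for a change after 1 TPM was added to each value. With this limit, 8.43% of the 6350 rows whose mean reached 1 TPM were changed, 3.28% upward and 5.15% downward in YPM. The TYB log2 ratios ran from −0.77 for YGR038C-B (6.75 and 3.56 TPM in YPD2 and YPM) to 0.52 for YHL009W-B, with a median of −0.19. They lay below 0 in 38 rows and above 0 in 6 (29 and 15 after the rescaling by 1.098), and 39 rows were within 1.5-fold. All 28 Ty1 TYB rows that run through TYA and the frameshift lay below 0, but only 22 did so after the rescaling. The 2 that R64 annotates as a single segment, YAR009C (28.2 and 31.7 TPM) and YLR035C-A (22.9 and 24.3 TPM), lay above 0 on both scales. Of these, YLR035C-A lies outside the annotated elements. This split was noticed after the values were seen, and both differences are within 1.5-fold.

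The TYA rows, which encode only Gag, were low and scattered. In all 42 elements that had both rows, TYA was listed below TYB in both libraries. Only 22 of the 46 TYA rows reached a mean of 1 TPM, and none reached the level of the median row. The highest was YGR027W-A with 25.4 and 16.8 TPM in YPD2 and YPM. YDR170W-A, which lies outside the annotated elements and shares 58.8% of its words with Ty1, had 16.7 and 14.2 TPM, and YLR256W-A had 17.96 and 12.48 TPM. The Ty4 row YJL114W was level at 11.5 and 11.2 TPM. The 20 Ty2 rows gave only 3.59 TPM of TYA in YPD2 and 1.89 TPM in YPM, against 161 and 144 TPM of TYB. The only matched Ty3 TYA row, YGR109W-A, and the Ty4 row YHL009W-A were listed at 0 in both libraries. All words of both lie in the TYB rows of the same elements, which were above 18 TPM, so their reads may be listed there.

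Among the 22 TYA rows above the minimum, 4 (2 higher and 2 lower in YPM) passed the limit of change, against 8.43% of all rows. All 4 had means between 1 and 5 TPM, a range in which 34.5% of 249 other rows were changed. YML040W had 5.18 and 0.37 TPM in YPD2 and YPM, a log2 ratio of −2.17. YFL002W-B had 2.31 and 0.42 TPM, a log2 ratio of −1.22. In the other direction, YLR227W-A had 0.84 and 2.92 TPM in YPD2 and YPM, a log2 ratio of 1.09. YMR046C was listed at 0 in YPD2 and at 2.14 TPM in YPM. All 4 are low rows, and none moved with its own TYB row by a like amount. YML039W, the partner of YML040W, had 41.2 and 34.6 TPM, and YMR045C, the partner of YMR046C, had 17.6 and 10.2 TPM.

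Several TYA rows were listed at 0 in a single library. YDR365W-A had 0 in YPD2 and 1.81 TPM in YPM, and YPL257W-A had 0 and 1.98 TPM. YMR051C went the other way, with 1.31 TPM in YPD2 and 0 in YPM. In all, 4 TYA rows were at 0 only in YPD2, 4 only in YPM and 8 in both. A 0 in an estimated table can stand for reads that were given to another copy, so no fold is given for these rows. The TYA log2 ratios above the minimum had a median of 0.00 and an SD of 0.82, against 0.26 for TYB, with 11 rows on each side of 0. In 16 of the 42 elements, TYA and TYB moved in opposite directions. Elements whose TYA row was at 0 in both libraries could not count as opposite, so the base of 42 is too large.

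**Figure D3:**
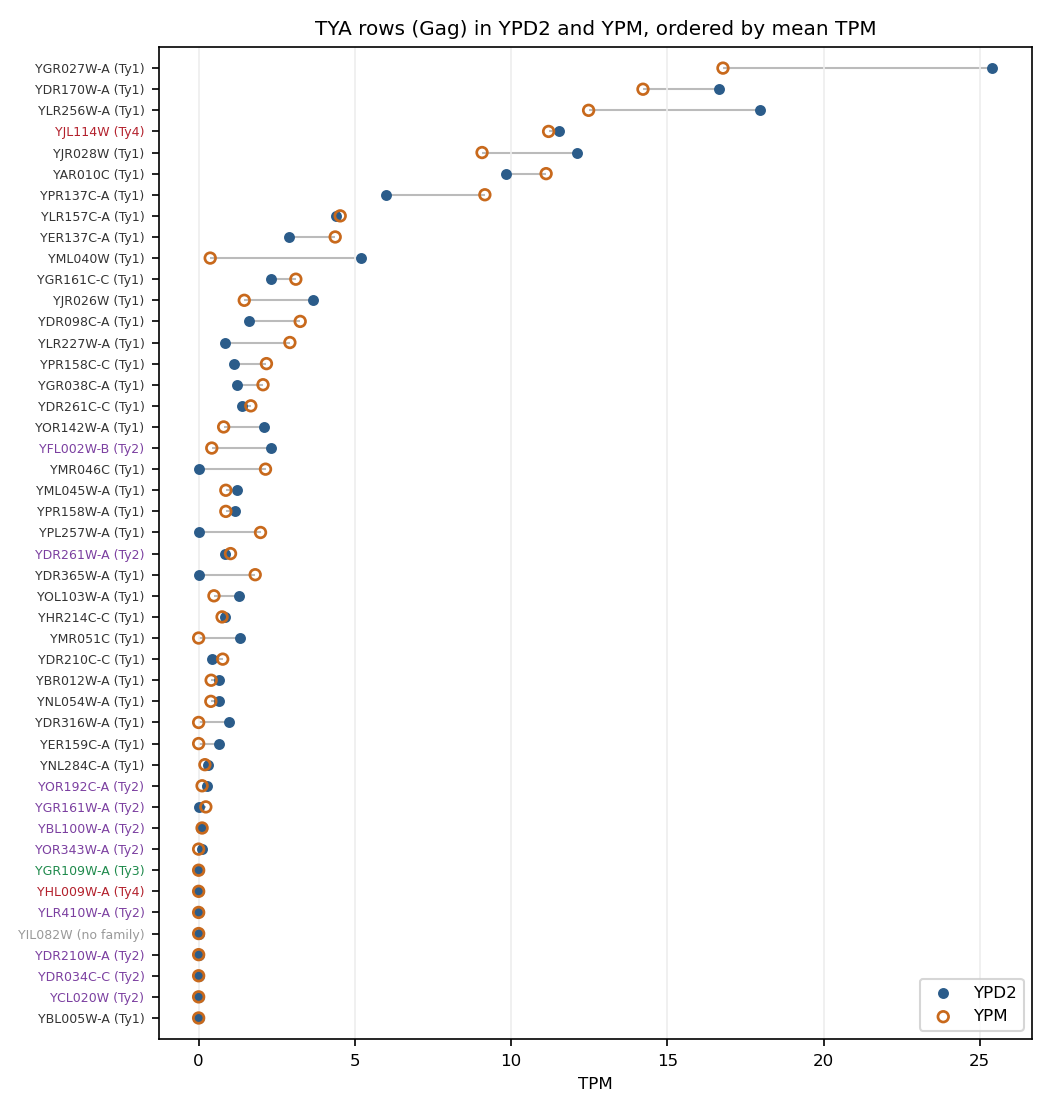
Each line joins the TPM of a TYA row in YPD2 (filled circle) and in YPM (open circle), 1 library each, with rows ordered by mean TPM. The highest row, YGR027W-A, is at 25.4 and 16.8 TPM, most rows lie below 5 TPM in both libraries, and 8 of 46 are listed at 0 in both.

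Rows of identical sequence were then summed, because no read can tell them apart. There were 8 such sets with 19 rows, 7 of them TYA sets, and in 3 sets the members moved both ways. YJR026W, YLR227W-A and YML040W have the same sequence. Singly, YLR227W-A passed the limit upward and YML040W downward, but their sum with YJR026W was 9.68 and 4.75 TPM in YPD2 and YPM, a log2 ratio of −0.89 that is within the limit. The set of YDR365W-A, YER137C-A, YLR157C-A and YPL257W-A had 7.29 and 12.7 TPM in YPD2 and YPM, a log2 ratio of 0.72. YFL002W-B and YGR161W-A, both of Ty2, had 2.31 and 0.65 TPM. With identical rows summed, 2 changes remained in place of 4, namely YMR046C and the pair with YFL002W-B.

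The Ty rows were also set beside other rows of like abundance. Between 1 and 5 TPM, 4 of 15 Ty rows (26.7%) were changed, against 34.5% of 249 other rows. Between 5 and 150 TPM, 0 of 51 Ty rows were changed, against 6.61% of 4976 other rows. In this upper range the median log2 ratio was −0.20 for Ty rows and −0.15 for the others. In the lower range it was 0.15 for the 15 Ty rows, all TYA, and −0.26 for the others. The Ty rows share reads, which ties their values to each other, so the shares are given as a description only.

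**Figure D4:**
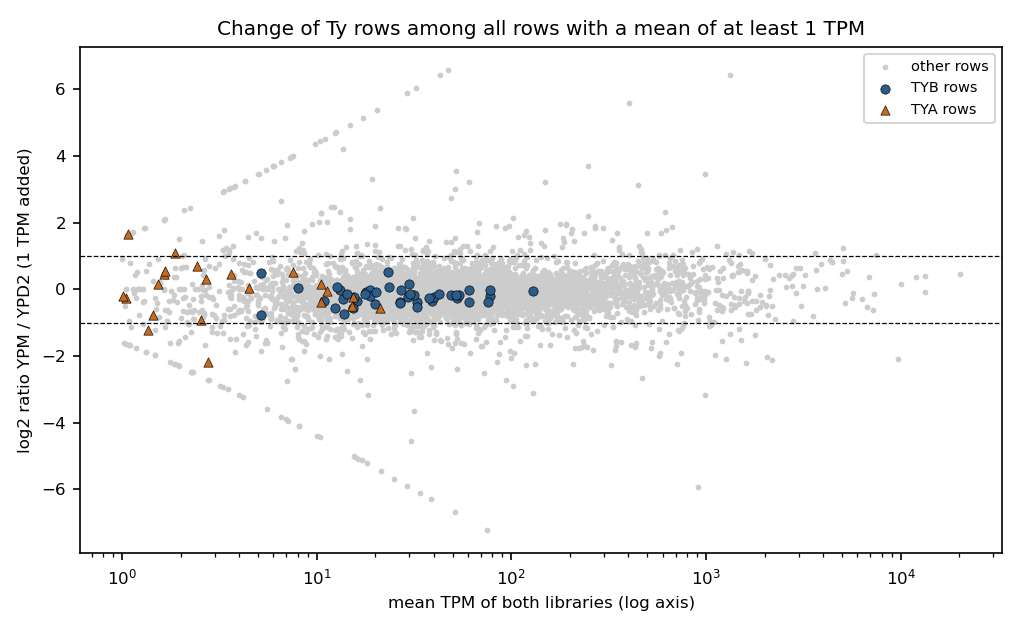
Points give the log2 ratio, YPM over YPD2 with 1 TPM added to both, against the mean TPM on a log axis, for TYB rows (blue circles), TYA rows (orange triangles) and all other rows (grey), 1 library per medium, and horizontal lines mark the limit of change. Above 5 TPM all 51 Ty rows lie within the limit, and the 4 changed rows are TYA rows between 1 and 5 TPM.

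The 45 elements with member rows were searched around their start for the motifs of the activators Ste12 (TGAAACA) and Tec1 (CATTCC or CATTCT). The window covered both strands and ran from 400 bases before to 500 bases after the start codon. This window reaches past the end of most elements into flanking DNA. A Ste12 motif was present in the windows of 12 of 31 Ty1, 1 of 10 Ty2, 2 of 2 Ty3 and 2 of 2 Ty4 elements, and in 20.6% of 5913 other genes. Before the start codon alone, it was found in 12, 1, 2 and 0 of these windows and in 9.50% of those of other genes. Counting only matches inside the annotated element, 8 Ty1, 0 Ty2, 2 Ty3 and 2 Ty4 elements held it. The Tec1 motif, which is short, was found inside all 45 elements and in the windows of 65.2% of the other genes. A motif of Ty3 (YGR109W-A, first base at −348 from the start codon, chrVII:707242-707288, plus strand) and one of Ty4 (YHL009W-A, inside the coding sequence, chrVIII:85909-85955, plus strand) are shown with the Ste12 motif in capitals. They were chosen because every searched element of these families held the motif.
Ty3 YGR109W-A: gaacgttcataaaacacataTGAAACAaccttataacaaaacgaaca
Ty4 YHL009W-A: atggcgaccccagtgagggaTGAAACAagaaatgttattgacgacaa
A match describes the sequence and was not tested for binding. Only the exact spelling TGAAACA was searched for Ste12, so an element without a match may still hold a variant site.

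Of 58 host genes in 7 lists that act on Ty elements or in the pheromone pathway, 1 passed the limit of change, against 8.43% of all rows. All 58 reached a mean of 1 TPM, 14 had a log2 ratio above 0 and 44 below (21 and 37 after the rescaling), and the median was −0.22. The activator STE12 had 7.95 and 9.71 TPM in YPD2 and YPM, and its partner TEC1 had 43.1 and 44.5 TPM. GCN4, the activator of amino acid synthesis, which also acts at Ty1, showed the lowest log2 ratio of the activators at −0.61, with 1631 and 1066 TPM. FUS3, the mating kinase that restricts Ty1, was level at 37.7 and 38.0 TPM, and KSS1, the filamentation kinase, had 35.5 and 29.2 TPM.

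Only SPT3, a subunit of the SAGA coactivator required for Ty1 transcription, passed the limit, as 1 of 9 coactivator genes. Its listed value was 0.01 TPM for YPD2 and 14.6 TPM for YPM, and a link to the Ty1 rows was not tested. Since 0.01 TPM is almost 0 and an estimate can fail, no fold is given. The lowest coactivator was SNF6 of the SWI/SNF complex, with a log2 ratio of −0.63.

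The 6 genes for Ty RNA and particles all lay below 0 (5 of 6 after the rescaling), with a median of −0.29 and none past the limit. Among them, the debranching enzyme DBR1 had 45.6 and 32.1 TPM in YPD2 and YPM, and the exonuclease XRN1 had 56.5 and 51.4 TPM. BUD22 had 30.1 and 18.3 TPM, the lowest log2 ratio of all 58 genes at −0.69, and PAT1 had the highest of this list at −0.10. For the 9 integration partners at RNA polymerase III genes, the median was −0.24. Within this list RPC40, a polymerase subunit that Ty1 integrase binds, had 69.8 and 46.5 TPM, and TFC7 had the highest log2 ratio at 0.21.

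The other lists lay on both sides of 0. The 12 restrictors had a median of −0.32 and ran from −0.58 for RTT109, a histone acetyltransferase, to 0.60 for CAC3, a chromatin assembly factor subunit. The 7 SPT chromatin genes ran from −0.58 for SPT21 to 0.24 for SPT4, an elongation factor. The 8 pheromone pathway genes ran from −0.38 for DIG2, an inhibitor of Ste12, to 0.06 for the scaffold STE5. The tRNAs that prime Ty reverse transcription cannot be followed, because all 299 tRNA rows were listed at 0.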

How the data were processed

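The authors cultured BL03-D-4, made polyA-selected RNA-seq libraries and ran RSEM. The deposited values are its TPM estimates, in 1 column for each medium. HISAT2 and StringTie are also named in the submitters' processing notes. The genome build, annotation, read length and use of strand are not given in the sources used here. The column MYPD was taken as YPM (modified YPD) and YPD as YPD2.

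Log2 ratios of YPM to YPD2 were computed after 1 TPM was added, which understates changes of low rows. The comparison kept rows whose mean reached 1 TPM, with a change called where the log2 ratio reached 1 in size. Sums and their ratios carry no added TPM. Families, coordinates and sequences came from RefSeq R64, which matched 89 of 90 members, and need not equal the authors' reference. For YDR170W-A and YLR035C-A, the family was set by shared words. Words of 50 bases were matched on both strands.

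Named Ty rows were the 12 highest by mean, changed rows, rows at 0 in 1 library with at least 1 TPM in the other, and each family's highest row. Named host genes were changed genes, STE12, TEC1, FUS3, KSS1, DBR1, XRN1 and the extremes of each list. Other names were chosen after their values were seen. The members and lists were chosen with earlier results of these data known. Tools were matplotlib 3.10.9, numpy 2.4.6, pandas 2.3.3 and Python 3.11.15.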

Additional observations from a re-analysis of the deposited data

How the results depend on the processing

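The count of 4 changed Ty rows depended on the treatment of low values. It was 0 with 5 TPM added, 0 among rows whose mean reached 10 TPM, 7 with no minimum, and 2 with identical copies summed. The 1 changed host gene was lost (0) at a mean of at least 10 TPM, since SPT3 lies below it. Of all rows, 354 were changed with 5 TPM added, against 535. Of the family sums, only Ty3 crossed a ratio of 1 under rescaling, at 1.02. The Ty4 ratio stayed at 1.21 when YPL060C-A, a Ty4 row whose description lacks the word retrotransposon, was added, an alternative chosen after seeing the data. Shared reads, unknown depth and 1 library per medium limit every row. No paired analysis was possible because each medium has 1 library.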

Other observations

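Genes next to Ty elements are of interest because a Ty insertion can change the expression of its neighbour. The nearest protein-coding gene with a row was taken on each side of the elements annotated in R64. Of these genes, 57 lay within 1000 bases of the element. Among them, 53 reached a mean of 1 TPM, with a median log2 ratio of −0.09. Only 2 of them (3.77%) passed the limit of change, against 8.43% of all rows, and both were lower in YPM. POR1, the mitochondrial porin, had 2057 and 904 TPM in YPD2 and YPM and lies 317 bases from a Ty1 element. RRN11, a subunit of the RNA polymerase I core factor, had 12.5 and 2.19 TPM and lies 160 bases from another. Just outside the distance limit, YHR214C-D, 1010 bases from YHRCTy1-1, had 13.7 and 1.79 TPM in YPD2 and YPM. CTR3, a copper transporter gene, starts 102 bases from the Ty2 element YLRWTy2-1, which lies outside the coding sequence. It had 4.73 and 8.26 TPM in YPD2 and YPM, a log2 ratio of 0.69, while the Ty2 row YLR410W-B of that element had 33.6 and 29.9 TPM.

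Of 4 rows that lie within annotated elements but whose descriptions lack the word retrotransposon, YNL054W-B had 26 and 15.4 TPM in these media, and YPL060C-A had 6.82 and 8.30 TPM. YCL074W and YCL075W of the Ty5 element were at or near 0.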
